A study of Mus musculus with 20 samples.

Results

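The creatine kinase and adenylate genes of mouse plantaris muscle were followed as 9 named genes: Ckm, Ckmt2, Ckb, Slc6a8, Gamt, Gatm, Ak1, Ampd1 and Ampd3. All 9 had a row of their own among the 22660 genes of the count table. They were picked by name as parts of the system that regenerates ATP, and Ckmt2 was picked on its difference between D + Q and vehicle mice after overload, so that difference is described here without a test. RNA of the plantaris, a hindlimb plantarflexor, was sequenced from 20 mice aged 2 years, 5 in each of 4 groups, sham with vehicle, sham with D + Q, MOV with vehicle and MOV with D + Q. The study used male C57BL/6 J mice. MOV is mechanical overload, in which part of the gastrocnemius and soleus was removed on both sides so that the plantaris took up their load, and in sham mice only the skin was opened. D + Q is dasatinib at 5 mg/kg, a tyrosine kinase inhibitor, with quercetin at 50 mg/kg, a plant flavonoid, and vehicle mice were gavaged with polyethylene glycol alone. The treatment protocol places gavage on days 7 and 10 and collection on day 14 after surgery, whereas the description of the study places the last gavage of sham mice on day 14. Whole muscle was used, so each value is an average over fibers and every other cell of the tissue, and fewer cells of a type and less RNA per cell cannot be told apart.

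A muscle fiber keeps its ATP level steady during contraction by moving phosphate from phosphocreatine to ADP. Gatm makes guanidinoacetate from arginine and glycine and Gamt methylates it to creatine, mainly in organs such as kidney and liver, and it enters the fiber through the transporter Slc6a8. Ckmt2, the sarcomeric mitochondrial creatine kinase, charges creatine at the inner membrane, Ckm, the cytosolic muscle form, spends the phosphocreatine at the myofibrils and the calcium pump, and Ckb is the cytosolic form of brain, smooth muscle and many other non-muscle cells. When ADP builds up, adenylate kinase (Ak1 in the cytosol of fibers) recovers ATP from a pair of ADP molecules and leaves AMP, which AMP deaminase (Ampd1 in fibers, Ampd3 in red blood cells and many other tissues) converts to IMP.

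The libraries held between 17887532 and 26234518 counts. Levels are given as CPM, a gene's share of its library's counts after scaling by TMM, a method that sets the bulk of genes equal between libraries, and the TMM factors were 0.8286 to 0.8861 in sham and 1.06 to 1.24 in MOV mice. Markers of skeletal muscle fibers summed to between 34110 and 58120 CPM in every mouse, so the tissue was muscle as labelled. Their sum was 51590 to 58120 CPM in sham, 36650 to 49730 in vehicle MOV and 34110 to 42450 in D + Q MOV mice. Of these 7 markers, 2 rose and 3 fell with MOV in vehicle mice, and 1 rose and 4 fell in D + Q mice. Their median log2 changes were -0.062 and -0.34, and 0.31 and 0.025 with libraries scaled to totals instead. The 4 fiber type myosins summed to 74300 to 86790 CPM in sham and 36840 to 57370 in MOV mice. Of the myosins, 1 rose and 1 fell in vehicle mice, and 2 rose and 1 fell in D + Q mice. The 6 macrophage markers and the 6 fibroblast markers all rose with MOV in both treatments, macrophages from 17.3 to 41.9 CPM in sham to between 73.0 and 219.1 in MOV mice, and fibroblasts from 206.2 to 737.9 to between 4286 and 10610. Of the smooth muscle markers, a cell type in which Ckb is known, 3 of 4 rose in both treatments, and of the red blood cell markers, where Ampd3 is known, 0 of 5 were called in either, with sums from 208.1 to 1028 CPM over all mice. Of the endothelial markers, 4 of 5 rose in both treatments (median log2 change 0.69 and 0.53), and of the adipocyte markers tested, 3 of 3 fell in vehicle and 1 of 3 in D + Q mice (medians -1.51 and -0.85). Because the macrophage, fibroblast, smooth muscle, endothelial and adipocyte lists and the fiber sums move with MOV, they move with each MOV difference below. The part of any marker list in those differences was not tested.

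Counted per length in vehicle sham muscle, the fiber enzymes stood far above the genes of creatine synthesis. As TPM, a gene's share of all transcripts per length (over merged exons, without TMM scaling), Ckm was at 5052 ± 240 (SD, n = 5), Ampd1 at 793 ± 133, Ckmt2 at 535 ± 86.8, Ak1 at 340 ± 5.01 and Slc6a8 at 81.2 ± 7.82. Ampd3 followed at 6.28 ± 1.09, Gamt at 5.65 ± 0.891, Ckb at 4.49 ± 1.17 and Gatm at 0.625 ± 0.187 TPM. The ranges of Ampd1 and Ckmt2 overlapped, as did those of Ampd3, Gamt and Ckb, so their order is not fixed. With the length of the canonical transcript instead, Ckm stayed highest at 8716 TPM, and Ckmt2 at 1349 and Ak1 at 1147 stood above Ampd1 at 910.

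**Figure D1:**
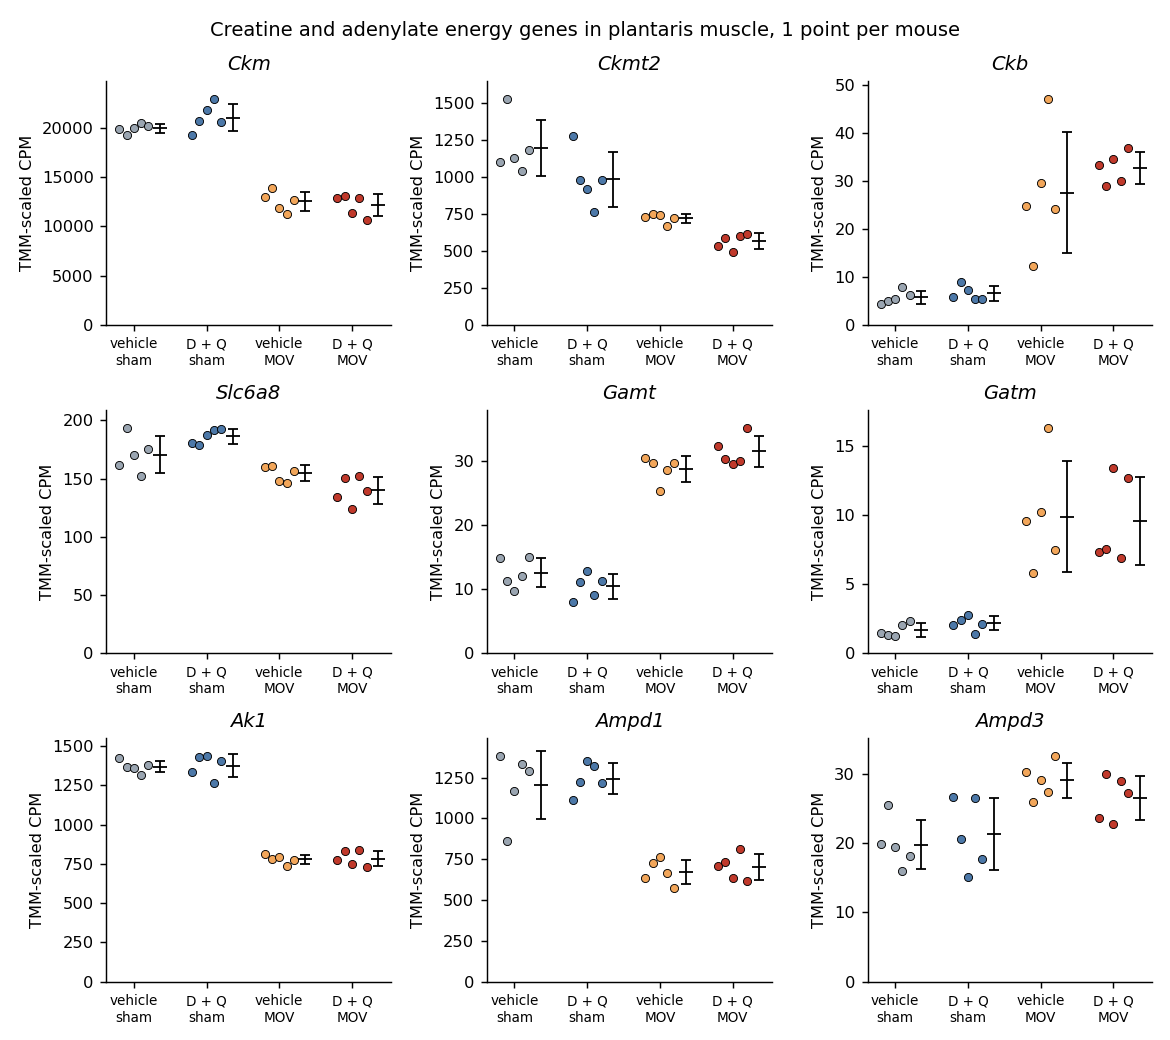
Level of each of the 9 genes in TMM-scaled CPM (linear axes from 0) in every mouse, with the mean and SD of each group of 5 as a bar beside the points. Ckm, Ckmt2, Ak1 and Ampd1 sit lower in all MOV mice than in all sham mice of the same treatment, Ckb, Gamt and Gatm sit higher, and Slc6a8 and Ampd3 move least.

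With MOV the main muscle forms of this system, Ckm, Ckmt2, Ak1 and Ampd1, fell in both treatments, and Ckb and the enzymes of creatine synthesis rose in both. In vehicle mice, 4 members were higher in MOV than in sham (Ckb, Gamt, Gatm and Ampd3) and 4 were lower (Ckm, Ckmt2, Ak1 and Ampd1) in the quasi-likelihood test of edgeR, called where the adjusted p was below 0.05. Of all 14601 genes tested in vehicle mice, 30.7% were higher and 29.8% lower, so being called is in itself common here. In D + Q mice, 3 members were higher (Ckb, Gamt and Gatm) and 5 lower (Ckm, Ckmt2, Slc6a8, Ak1 and Ampd1), against 34.4% higher and 30.9% lower of 14913 genes. In TMM-scaled CPM the 5 MOV mice did not overlap the 5 sham mice for 8 members in each treatment. The same was so for 46.5% of genes in vehicle and 53.1% in D + Q mice. With libraries scaled to their totals alone, the median log2 change of all genes moved from near 0 to 0.36 in vehicle and 0.39 in D + Q mice. The calls then split into 7683 higher and 1453 lower in vehicle mice, against 4482 and 4349 with TMM, and into 8392 and 1654 in D + Q mice, against 5129 and 4614. Changes below are relative to the bulk of genes. Among the 9 members the MOV change of Slc6a8 in vehicle mice was the only one that turned its direction between these scalings. As TPM, without TMM scaling, Slc6a8 averaged higher in MOV than in sham mice in both treatments. As TPM over merged exons, Ckm, Ckmt2 and Ampd1 overlapped between MOV and sham mice of each treatment. With the length of the longest or of the canonical transcript instead, Ckm did not overlap in vehicle mice and still overlapped in D + Q mice.

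**Figure D2:**
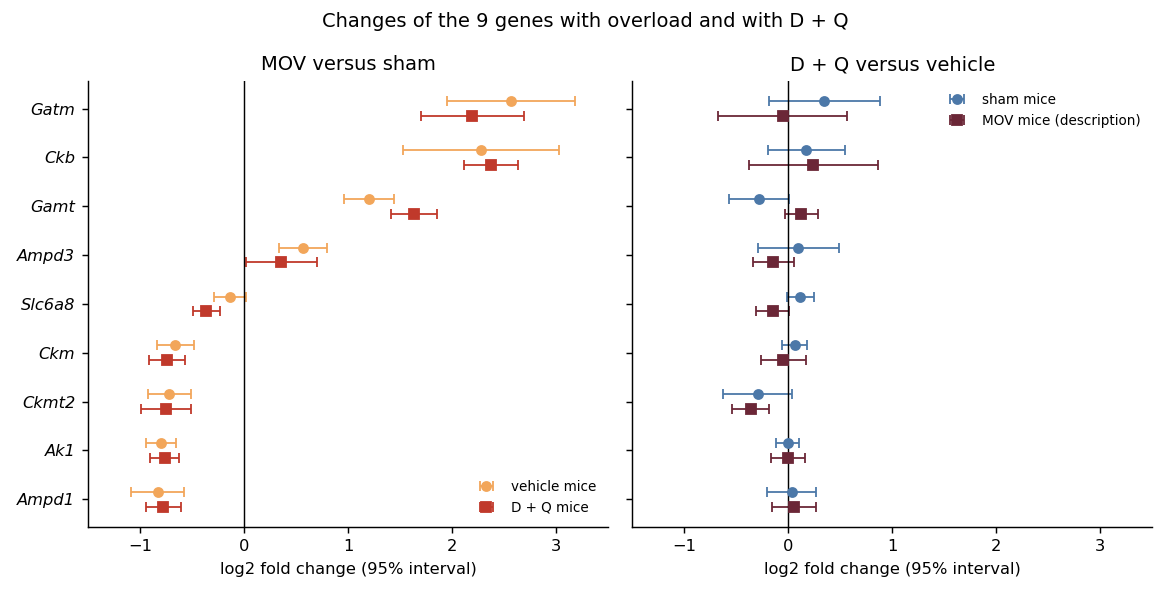
Log2 fold change with its 95% interval for the 9 genes, MOV versus sham on the left (circles vehicle, squares D + Q mice) and D + Q versus vehicle on the right (circles sham, squares MOV mice, the last given without a test). Gatm, Ckb and Gamt lie above 0 and Ckm, Ckmt2, Ak1 and Ampd1 below 0 in both MOV comparisons, and the D + Q differences lie close to 0 beside them. The interval of Ckmt2 in MOV mice belongs to the difference on which it was picked, so its place relative to 0 is not read as a test.

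Ckm, the most abundant member, carried the largest loss in CPM. The vehicle sham mice, from replicate 1 to 5, had 19941, 19284, 20025, 20479 and 20242 CPM, and the vehicle MOV mice 12988, 13860, 11874, 11283 and 12669. The D + Q sham mice had 19242, 20765, 21795, 22943 and 20605 CPM, and the D + Q MOV mice 12933, 13085, 11318, 12929 and 10663. In TMM-scaled CPM every MOV mouse lay below every sham mouse, whichever the treatment. As TPM over merged exons, without TMM scaling, the ranges overlapped. In vehicle mice TPM was 4752 to 5347 in sham and 4684 to 4935 in MOV. In D + Q mice TPM was 4811 to 6400 in sham and 4342 to 5254 in MOV. The vehicle overlap depended on the length used. With the longest transcript, vehicle TPM was 5745 to 6405 in sham and 5368 to 5692 in MOV, without overlap. With the canonical transcript it was 8296 to 9177 and 7407 to 7944, also without overlap. The D + Q groups overlapped with each length. The log2 change with MOV was -0.66 ± 0.0827 (SE, n = 5 and 5, adjusted p = 7.2e-06, edgeR) in vehicle and -0.74 ± 0.0815 (adjusted p = 3.4e-07) in D + Q mice, a fall to 0.632 and 0.598 of the sham level. Scaled to library totals, it was -0.29 and -0.38. The gene (ENSMUSG00000030399) lies on chromosome 7 from 19138701 to 19157965 of GRCm39, plus strand. On the other strand, the lncRNA A930016O22Rik covers 26.0% of its exon bases, and whether counting used strand is not given in the sources used here.

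Ckmt2 fell with MOV by about as much as Ckm. Its sham levels were 1102, 1525, 1124, 1040 and 1181 CPM in vehicle mice and 1275, 976.0, 914.4, 765.0 and 980.2 in D + Q mice. After MOV they were 725.0, 747.2, 743.5, 670.4 and 718.7 CPM in vehicle mice and 534.3, 585.0, 490.7, 602.4 and 614.8 in D + Q mice. In TMM-scaled CPM all MOV mice lay below all sham mice, the nearest being D + Q sham replicate 4 and vehicle MOV replicate 2. As TPM over merged exons the ranges overlapped. In vehicle mice TPM was 465.9 to 683.7 in sham and 471.2 to 521.1 in MOV. In D + Q mice TPM was 378.4 to 565.5 in sham and 378.3 to 444.0 in MOV. The log2 change with MOV was -0.72 ± 0.0986 (adjusted p = 1.77e-05, edgeR) in vehicle and -0.75 ± 0.112 (adjusted p = 4.05e-05) in D + Q mice. The MOV mice of these tests are those on which Ckmt2 was picked, and that choice leaned on vehicle mice being high and D + Q mice low. The gene (ENSMUSG00000021622) spans chromosome 13 from 92001503 to 92025608 of GRCm39, minus strand.

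Ckb, the third creatine kinase, moved the other way. In sham muscle it stood at 4.37, 5.07, 5.29, 7.86 and 6.24 CPM in vehicle mice and at 5.83, 8.89, 7.32, 5.39 and 5.40 in D + Q mice. MOV muscle held 24.9, 12.3, 29.5, 47.1 and 24.1 CPM with vehicle and 33.4, 29.0, 34.5, 30.0 and 37.0 with D + Q. The lowest MOV mouse, vehicle MOV replicate 2, was still above the highest sham mouse, and the vehicle MOV group was the most spread of the 4. The level was 4.85-fold (log2 2.28 ± 0.334, adjusted p = 0.000198, edgeR) higher in vehicle MOV and 5.18-fold (log2 2.37 ± 0.124, adjusted p = 2.07e-10) higher in D + Q MOV than in sham. Leaving out vehicle MOV replicate 2 gave a log2 change of 2.48 and leaving out replicate 4 gave 2.01. The gene (ENSMUSG00000001270) occupies chromosome 12 from 111635789 to 111639008 of GRCm39, minus strand, where Trmt61a on the other strand covers 7.17% of its exon bases.

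The promoters of these creatine kinases are shown because they belong to 2 forms that fell with MOV and 1 that rose. Windows of the 250 bases before the transcription start came from RefSeq on GRCm38.p6, and 7 of the 9 members had one. Each is written from 5′ to 3′ on the gene's strand, with E-boxes (CANNTG, which reads the same on both strands) in capitals: Ckm at chr7:19410844-19411093, plus strand, Ckmt2 at chr13:91876886-91877135, minus strand, and Ckb at chr12:111672339-111672588, minus strand.
Ckm: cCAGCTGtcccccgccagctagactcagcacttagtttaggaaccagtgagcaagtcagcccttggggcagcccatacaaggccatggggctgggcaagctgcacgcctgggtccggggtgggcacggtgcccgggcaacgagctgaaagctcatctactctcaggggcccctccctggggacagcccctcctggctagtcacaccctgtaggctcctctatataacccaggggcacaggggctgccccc
Ckmt2: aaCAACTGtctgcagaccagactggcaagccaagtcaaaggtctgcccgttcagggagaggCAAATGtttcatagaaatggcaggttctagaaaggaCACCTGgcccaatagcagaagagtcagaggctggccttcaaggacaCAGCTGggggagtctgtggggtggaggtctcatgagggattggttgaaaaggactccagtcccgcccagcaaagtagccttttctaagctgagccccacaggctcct
Ckb: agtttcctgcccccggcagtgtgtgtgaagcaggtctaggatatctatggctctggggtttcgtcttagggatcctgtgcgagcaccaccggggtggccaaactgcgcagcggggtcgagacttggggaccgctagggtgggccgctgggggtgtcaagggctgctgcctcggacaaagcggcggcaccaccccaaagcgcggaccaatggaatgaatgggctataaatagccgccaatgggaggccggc
The Ckm window held 1 E-box, at 249 bases before the start, and the Ckmt2 window held 4, at 248, 189, 153 and 107 bases. No E-box letters were in the Ckb window, which held TATAAA at 28 bases before the start and, overlapping it, a match to the MEF2 consensus. An E-box was in 66.2% of all 32851 windows of this length, TATAAA in 12.4%, the MEF2 consensus in 2.92%, the CArG box in 1.47% and TCAAGGTCA, a site of estrogen-related receptors, in 0.387%. These motifs were searched on both strands, and neither of the last 2 was found in the 3 windows.

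Ratios of counts within a library do not depend on scaling, and they set the forms apart. Per 1000 Ckm counts, Ckb went from 0.288 ± 0.0624 (SD, n = 5) in vehicle sham to 2.27 ± 1.21 in vehicle MOV mice, and from 0.313 ± 0.0751 to 2.73 ± 0.525 in D + Q mice. Every MOV mouse, from 0.887 up, was above every sham mouse, of which the highest had 0.428. Ckmt2 per 1000 Ckm was 59.9 ± 11.1 in vehicle sham and 57.7 ± 3.39 in vehicle MOV, and 47.2 ± 12.1 and 46.7 ± 6.41 in the D + Q groups. Ak1 per 1000 Ckm stayed between 62.5 and 68.5 on average in all 4 groups, and Ampd1 between 54.0 and 60.2. As shares of the summed creatine kinase transcripts per length of merged exons, Ckm made up 90.3%, 92.2%, 90.2% and 91.7% in sham mice with vehicle, sham with D + Q, MOV with vehicle and MOV with D + Q, and Ckmt2 9.58%, 7.69%, 9.22% and 7.59%. Ckb rose within this pool from 0.0797% and 0.0883% in sham to 0.626% ± 0.329 and 0.765% ± 0.140 in MOV mice, and reached 1.14% in the highest mouse. The shares depended on the length used. In vehicle sham mice Ckm made up 87.2% with the longest and 86.5% with the canonical transcript, and Ckmt2 12.75% and 13.4%. In vehicle mice Ckb went from 0.061% to 0.476% with the longest and from 0.0687% to 0.540% with the canonical transcript.

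**Figure D3:**
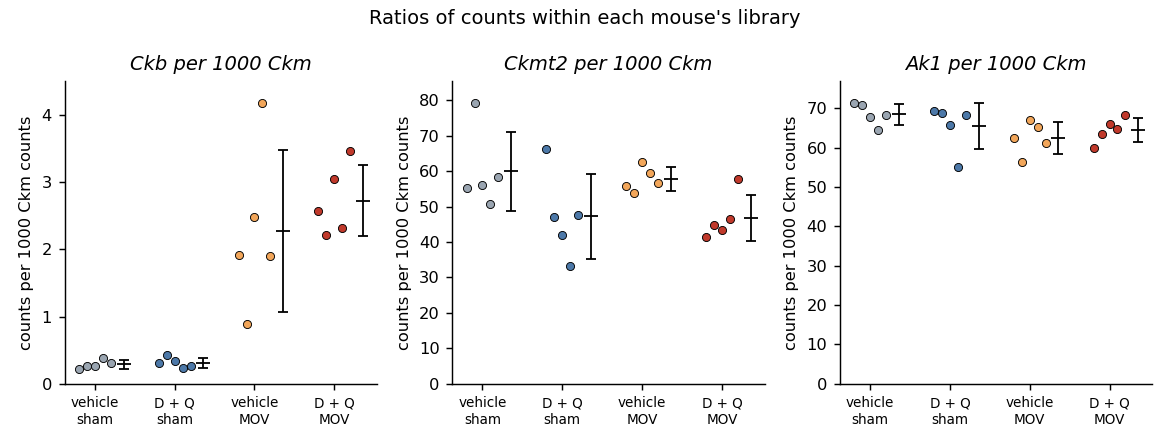
Counts of Ckb, Ckmt2 and Ak1 per 1000 counts of Ckm in the same library (linear axes from 0), 1 point per mouse, with the mean and SD of each group of 5 as a bar. Ckb per Ckm is 0.887 or more in every MOV mouse and 0.428 or less in every sham mouse, while Ckmt2 and Ak1 per Ckm overlap between sham and MOV.

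Both enzymes of creatine synthesis rose with MOV from low levels. Gamt, which completes creatine, was at 14.9, 11.3, 9.80, 12.1 and 15.0 CPM in vehicle sham and 7.98, 11.2, 12.9, 9.09 and 11.3 in D + Q sham mice. It reached 30.5, 29.8, 25.3, 28.6 and 29.8 CPM in vehicle MOV and 32.4, 30.4, 29.6, 30.1 and 35.3 in D + Q MOV mice. The MOV mice lay close together and all above the sham mice. The log2 change was 1.20 ± 0.111 (2.30-fold, adjusted p = 3.91e-07, edgeR) in vehicle and 1.63 ± 0.105 (3.10-fold, adjusted p = 7.54e-10) in D + Q mice. Ndufs7, a complex I gene on the other strand, covers 24.9% of the exon bases of Gamt, so some of its reads may be hard to assign. Gamt (ENSMUSG00000020150) lies on chromosome 10 from 80089960 to 80096860 of GRCm39, minus strand.

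Gatm, which makes guanidinoacetate, the precursor of creatine, had the fewest counts of all members, between 19 and 373 in a library. Vehicle sham mice had 1.47, 1.32, 1.23, 2.04 and 2.36 CPM and D + Q sham mice 2.05, 2.44, 2.78, 1.41 and 2.14. Vehicle MOV mice had 9.60, 5.81, 10.2, 16.3 and 7.43 CPM and D + Q MOV mice 7.35, 7.53, 13.4, 6.92 and 12.7. Again the lowest MOV mouse, vehicle MOV replicate 2, exceeded the highest sham mouse. The increase was 5.92-fold (log2 2.57 ± 0.285, adjusted p = 4.66e-06, edgeR) in vehicle and 4.57-fold (log2 2.19 ± 0.232, adjusted p = 7.08e-07) in D + Q mice. Gatm (ENSMUSG00000027199) lies on chromosome 2 from 122424948 to 122441799 of GRCm39, minus strand.

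Among MOV mice, the extremes of Ckb and Gatm fell on the same mice as the extremes of the macrophage sum, and those of the other sums in part. Vehicle MOV replicate 2 was lowest among the MOV mice in Ckb, in Gatm, in the macrophage sum (73.0 CPM) and in the fibroblast sum (4286 CPM), and it had the highest fiber sum of the MOV mice (49730 CPM). Vehicle MOV replicate 4 was highest in Ckb, in Gatm and in the macrophage sum (219.1 CPM), with the lowest fiber sum (36650 CPM) and the highest fibroblast sum (8747 CPM) of its group. Over all MOV mice the lowest fiber sum (34110 CPM) and the highest fibroblast sum (10610 CPM) were those of D + Q MOV replicate 3, which had 34.5 CPM of Ckb and 13.4 of Gatm. Gamt was at 29.8 and 28.6 CPM in those mice. Markers of regenerating fibers, of which 4 of 5 rose with MOV in both treatments, summed to 42.1 to 60.9 CPM in sham mice. Their sum was 339.9 to 745.8 CPM in vehicle MOV and 299.5 to 570.2 in D + Q MOV mice, and vehicle MOV replicate 4 had the highest value. The lowest MOV value was that of D + Q MOV replicate 4, not of vehicle MOV replicate 2 (365.7 CPM). Vehicle MOV replicates 3 and 4 and D + Q MOV replicates 3 and 5 were highest in Gatm and in the regenerating fiber sum. D + Q MOV replicates 1 and 5 had macrophage sums of 196.5 and 197.2 CPM. Their Gatm was at 7.35 and 12.7 CPM and their regenerating fiber sums were 386.9 and 523.5 CPM. Among MOV mice the smooth muscle sum was also lowest in vehicle MOV replicate 2 (106.9 CPM), but highest in D + Q MOV replicate 5 (188.6 CPM). The Schwann and nerve sum was highest in vehicle MOV replicate 4 (41.7 CPM), but lowest in vehicle MOV replicate 5 (13.8 CPM). Of the 5 Schwann and nerve markers, 1 rose with MOV in vehicle mice, and 1 rose and 1 fell in D + Q mice. The part of these cell types in Ckb and Gatm was not tested.

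**Figure D4:**
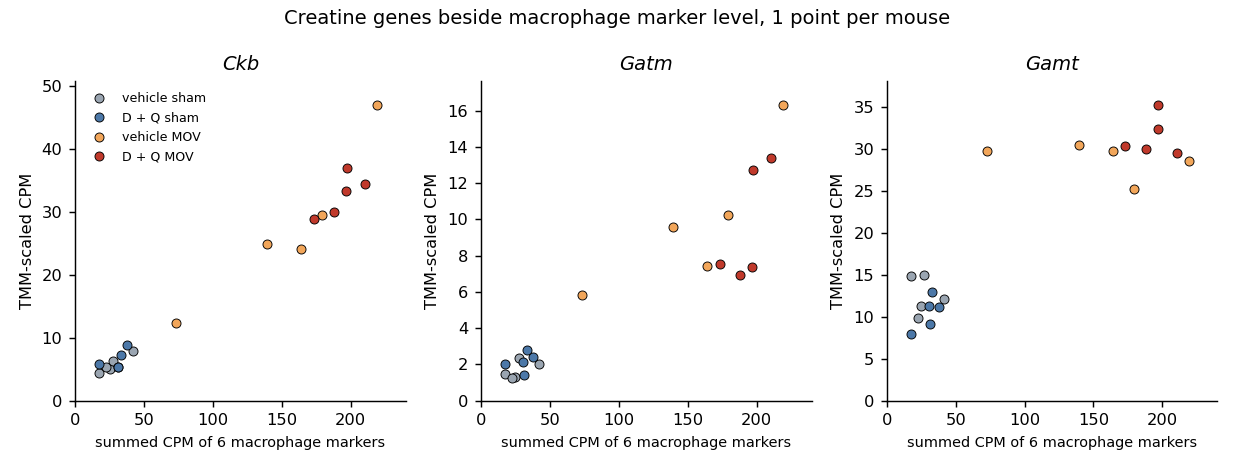
Level of Ckb, Gatm and Gamt (TMM-scaled CPM) against the summed CPM of 6 macrophage markers, 1 point per mouse, colored by group, with linear axes from 0. Among MOV mice, Ckb spreads from 12.3 to 47.1 CPM and Gatm from 5.81 to 16.3 as the marker sum spreads from 73.0 to 219.1, while Gamt stays between 25.3 and 35.3. D + Q MOV replicates 1 and 5, close in the marker sum (196.5 and 197.2 CPM), had 7.35 and 12.7 CPM of Gatm.

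The transporter Slc6a8 changed little, and its direction depended on the scaling. Vehicle sham mice had 161.9, 193.9, 170.6, 152.1 and 175.0 CPM and vehicle MOV mice 160.4, 161.0, 148.1, 146.3 and 156.8. D + Q sham mice had 180.5, 178.7, 187.5, 192.2 and 192.5 CPM and D + Q MOV mice 134.1, 150.7, 124.1, 152.0 and 139.6. The vehicle groups overlapped and the D + Q groups did not. The log2 change with MOV was -0.13 ± 0.0723 (adjusted p = 0.130, edgeR) in vehicle mice and -0.36 ± 0.0615 (adjusted p = 4.97e-05) in D + Q mice. Scaled to library totals, the values were 0.24 (adjusted p = 0.00709) in vehicle mice and -0.00073 (adjusted p = 0.991) in D + Q mice, so the call in D + Q mice was lost and one in the opposite direction appeared in vehicle mice. As TPM over merged exons, Slc6a8 went from 81.2 ± 7.82 to 110.8 ± 2.74 with MOV in vehicle mice. In D + Q mice it went from 93.6 ± 6.61 to 107.1 ± 5.03, and neither pair of groups overlapped. With other lengths the vehicle groups stayed apart and the D + Q groups overlapped. With the longest transcript, D + Q TPM was 93.4 to 108.6 in sham and 105.7 to 117.5 in MOV mice. With the canonical transcript it was 80.2 to 91.9 and 87.0 to 97.5. Gamt counts per 1000 Slc6a8 counts, free of scaling, went from 74.6 ± 15.9 to 186.2 ± 9.37 with MOV in vehicle mice and from 56.4 ± 10.4 to 226.5 ± 25.0 in D + Q mice. Slc6a8 (ENSMUSG00000019558) lies on chromosome X from 72716728 to 72726108 of GRCm39, plus strand.

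Of the adenylate genes, the fiber forms Ak1 and Ampd1 fell with MOV. Ak1 ranged from 1318 to 1420 CPM in vehicle sham and from 1264 to 1436 in D + Q sham mice, and from 735.8 to 811.4 in vehicle MOV and 727.4 to 837.9 in D + Q MOV mice. Its log2 change was -0.80 ± 0.0677 (adjusted p = 1.72e-07, edgeR) in vehicle and -0.76 ± 0.0648 (adjusted p = 1.42e-08) in D + Q mice. Ampd1, the muscle AMP deaminase, ranged from 860.6 to 1383 CPM in vehicle sham, 1113 to 1351 in D + Q sham, 575.3 to 761.9 in vehicle MOV and 618.0 to 814.5 in D + Q MOV mice. In CPM its sham groups lay clear of its MOV groups, although vehicle sham replicate 2, the lowest, came near the MOV range. As TPM over merged exons, Ampd1 was at 567.3 to 905.9 in vehicle sham and 554.5 to 785.1 in vehicle MOV mice. In D + Q mice it was at 725.5 to 972.0 in sham and 656.1 to 832.6 in MOV, so both pairs overlapped. The log2 change was -0.83 ± 0.121 (adjusted p = 3.02e-05) in vehicle and -0.78 ± 0.0800 (adjusted p = 1.55e-07) in D + Q mice. Ak1 (ENSMUSG00000026817) lies on chromosome 2 from 32511448 to 32528933 and Ampd1 (ENSMUSG00000070385) on chromosome 3 from 102981272 to 103007037 of GRCm39, both on the plus strand.

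Ampd3, the AMP deaminase of other tissues, rose in vehicle mice. It was at 19.9, 25.4, 19.5, 16.0 and 18.1 CPM in vehicle sham and 30.2, 26.0, 29.1, 27.4 and 32.6 in vehicle MOV mice. In D + Q mice it was at 26.7, 20.5, 15.2, 26.5 and 17.8 CPM in sham and 23.6, 29.9, 22.7, 28.9 and 27.3 in MOV muscle. The vehicle groups just failed to touch, since sham replicate 2 had 25.4 CPM and MOV replicate 2 had 26.0, and the D + Q groups overlapped. The log2 change with MOV was 0.57 ± 0.109 (adjusted p = 0.000361, edgeR) in vehicle mice and 0.36 ± 0.154 (adjusted p = 0.0595) in D + Q mice. The D + Q value passed 0.05 without D + Q MOV replicate 3 (0.0482) and without D + Q sham replicate 1 (0.0183) or 4 (0.0213) as adjusted p in edgeR, and with all mice in DESeq2 (0.0329). Per 1000 Ampd1 counts, Ampd3 stood at 17.3 ± 7.04 in vehicle sham and 43.9 ± 8.35 in vehicle MOV, and at 17.3 ± 4.92 and 37.8 ± 4.47 in the D + Q groups. Ampd3 (ENSMUSG00000005686) lies on chromosome 7 from 110366387 to 110411617 of GRCm39, plus strand, and B430319F04Rik on the other strand covers 24.2% of its exon bases.

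In sham muscle D + Q and vehicle mice did not differ detectably in any member, which is the only treatment comparison that played no part in the choice of Ckmt2. No member passed the adjusted threshold in edgeR, where 0.187% of 13926 genes were higher and 0.0287% lower. None had an unadjusted p under 0.05 in edgeR, which 1420 of the 13926 genes had. DESeq2 called none of the 9 either. Ckmt2 came to 982.2 ± 185.6 CPM with D + Q and 1194 ± 191.5 with vehicle (SD, n = 5), a log2 difference of -0.29 ± 0.148 with a 95% interval from -0.62 to 0.038 (adjusted p = 0.537). The groups overlapped, since D + Q sham replicate 1 had 1275 CPM. Vehicle sham replicate 2 was the highest at 1525 CPM, and without it the difference was -0.18, whereas without D + Q sham replicate 1 it was -0.41. Gamt differed by -0.28 ± 0.138 (adjusted p = 0.504) and Gatm by 0.35 ± 0.252 (adjusted p = 0.682). The interval for Ckm ran from -0.055 to 0.18, for Ak1 from -0.12 to 0.10, for Ampd1 from -0.20 to 0.27, for Slc6a8 from -0.016 to 0.24, for Ckb from -0.19 to 0.54 and for Ampd3 from -0.29 to 0.48 on the log2 scale. Differences within these intervals remain compatible with the values of 5 mice a group.

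In MOV muscle Ckmt2 averaged 565.4 ± 51.83 CPM with D + Q and 721.0 ± 30.74 with vehicle (SD, n = 5), a log2 difference of -0.36, or 0.780 of the vehicle level. The highest D + Q mouse had 614.8 CPM and the lowest vehicle mouse 670.4, so the groups did not overlap. The other 8 members overlapped. This is the difference on which Ckmt2 was picked, so nothing is read from its separation, which 1.5% of 15238 genes showed. In edgeR 0.0% of those genes were called higher and 0.0% lower, while 1340 had an unadjusted p under 0.05 and DESeq2 called 11. The other members differed by little, with log2 values of 0.24 for Ckb, 0.12 for Gamt, 0.057 for Ampd1, -0.00085 for Ak1, -0.048 for Ckm, -0.054 for Gatm, -0.14 for Ampd3 and -0.15 for Slc6a8. Single mice moved some of these widely, Ckb to 0.058 without vehicle MOV replicate 2 and 0.51 without replicate 4, Gatm to -0.21 without D + Q MOV replicate 3 and 0.19 without vehicle MOV replicate 4, and Ampd1 to 0.00051 without D + Q MOV replicate 4.

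The difference between the D + Q effect in MOV and that in sham mice was tested on all 20 mice as an interaction. Among 15700 genes, 0.00637% were called in each direction, and none of the 8 members other than Ckmt2 was. Slc6a8 had a log2 interaction of -0.27 ± 0.0928 (adjusted p = 0.718, edgeR) and Gamt one of 0.40 ± 0.161 (adjusted p = 0.809). These were the 2 of those 8 members at an unadjusted p under 0.05, as were 897 of the 15700 genes. Neither passed the correction over all genes. The values for Ckb, Gatm and Ampd3 were 0.060 ± 0.375, -0.41 ± 0.400 and -0.24 ± 0.196. No interaction test is given for Ckmt2, since it contains the contrast on which that gene was picked. Thus the call of Slc6a8 in D + Q mice and not in vehicle mice, and the reverse for Ampd3 (adjusted p = 0.931), does not show that the treatments differed.

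Other genes of energy supply, from lists fixed together with the members, also moved with MOV. For reference, the median log2 change was -0.015 over all genes tested and -0.13 over the 9 members in vehicle mice, and 0.023 and -0.36 in D + Q mice. Among 8 genes of AMP-activated kinase and its upstream kinase, 1 rose and 5 fell in vehicle mice and 3 rose and 5 fell in D + Q mice, with a median of -0.39 in each (3 and 4, then 3 and 3, scaled to totals). Prkaa2, the catalytic subunit most abundant in fibers, fell by 1.12 on the log2 scale in vehicle and by 1.00 in D + Q mice (adjusted p = 2.11e-08 and 1.34e-08, edgeR), and Prkab2, a regulatory subunit, changed by -1.37 and -1.45. Prkaa1, the other catalytic subunit, rose by 0.43 and 0.39 (adjusted p = 0.000849 and 2.83e-05). Prkag3, the gamma subunit of fast fibers, fell by 0.87 and 0.52, though the latter call was lost with scaling to totals (adjusted p = 0.132).

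Of 6 genes that carry ADP, ATP and phosphate across the mitochondrial membranes, 1 rose and 5 fell in both treatments under each scaling, with medians of -0.66 and -0.67 with TMM and -0.28 and -0.31 scaled to totals. Slc25a4, the adenine nucleotide translocase of muscle and heart, went from 3957 ± 306 to 2210 ± 166 CPM with MOV in vehicle mice (log2 -0.83 ± 0.0847, adjusted p = 1.03e-06, edgeR) and from 3619 ± 115 to 1989 ± 145 in D + Q mice. Slc25a5, the translocase of other tissues, went from 28.5 ± 4.20 to 48.8 ± 7.80 CPM (log2 0.79 ± 0.117, adjusted p = 4.67e-05) and from 27.4 ± 3.10 to 49.3 ± 7.40. The outer membrane channels Vdac3 and Vdac1 fell by 0.81 and 0.74 on the log2 scale in vehicle mice, and by 0.81 and 0.86 in D + Q mice. All 9 oxidative enzyme genes measured fell in both treatments (8 of 9 in vehicle mice scaled to totals), with medians of -0.70 and -0.68, among them Sdha of complex II at -0.95 and -0.94, Ndufs1 of complex I at -0.82 and -0.69, and Atp5a1 of ATP synthase at -0.82 and -0.75.

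Among 14 measured genes of purine breakdown, salvage and the purine nucleotide cycle, 7 rose and 4 fell in vehicle mice and 8 rose and 5 fell in D + Q mice, with medians of 0.24 and 0.28 (10 and 4 in each, scaled to totals). Ada, adenosine deaminase, rose by 2.37 ± 0.519 and 1.97 ± 0.324 on the log2 scale from a level under 1 CPM in sham mice, Pnp, purine nucleoside phosphorylase, by 2.10 and 1.78, and Ampd2, the third AMP deaminase, by 1.03 and 1.15. Nt5c1a, a cytosolic AMP nucleotidase of muscle, fell by 2.22 ± 0.149 and 1.77 ± 0.105 (adjusted p = 2.04e-08 and 2.3e-10, edgeR), Adk, adenosine kinase, by 1.00 and 0.90, and Adssl1, the muscle adenylosuccinate synthase that turns IMP back toward AMP, by 0.85 and 0.97. Thus Ampd1 and Adssl1, which share the purine nucleotide cycle of fibers, both fell.

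Of the further creatine and adenylate kinases, 3 fell in vehicle mice. Ak4, a mitochondrial matrix form, fell by 0.94 ± 0.236 and 0.54 ± 0.167 on the log2 scale in vehicle and D + Q mice (adjusted p = 0.00321 and 0.00899, edgeR), but scaled to totals neither passed (adjusted p = 0.0747 and 0.389). Ak3 and Ak6 fell by 0.18 and 0.24 in vehicle mice with TMM, and their values turned to 0.19 (adjusted p = 0.0101) and 0.14 (adjusted p = 0.125) with scaling to totals. The same 3 fell in D + Q mice with TMM, and scaled to totals 0 of the 3 fell in either treatment. None of the genes in these lists was called between D + Q and vehicle in sham or MOV muscle or in the interaction by edgeR.

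Within groups, the 3 creatine kinases followed different genes. Likeness was taken as Pearson's r of the deviations of log2 CPM from the group means over the 20 mice, among 7897 genes with a mean of at least 10 CPM, and it is a description, since genes of a library share its depth and cell makeup. Ckm was most like Pygm, muscle glycogen phosphorylase (0.903), Anapc5 (0.894), Rab12 (0.891), Rtn2 (0.871) and Atp2a1, the calcium pump of fast fibers (0.867). For Ckmt2 the nearest were Perm1 (0.907), Mdh1, malate dehydrogenase (0.883), Atp5h of ATP synthase (0.855), Rtn4ip1 (0.850) and Mb, myoglobin (0.847). Ckb was closest to Emp1 (0.940), Retnla, known from alternatively activated macrophages (0.930), Arpc1b of the actin nucleating complex (0.923), Sirpa, a receptor of myeloid cells (0.919), and Loxl1, a collagen and elastin crosslinking enzyme (0.917).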

How the data were processed

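Whole plantaris RNA of 20 mice was sequenced, and the authors aligned reads with STAR 2.7.8a to GRCm39, quantified genes in Partek by expectation-maximization and kept genes of at least 10 counts. The authors deposited these as estimated counts without normalization, 1 column per mouse, and 29.8% of the values are not whole, so they were rounded. All 20 columns were used.

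The 9 members, the pathway and marker lists and the tests were chosen with earlier results of these data known. Groups and replicate numbers came from the titles in the labels. The labels do not say more of the mice than that they are separate samples, and the least different pair within a group differed 7.13 times more than counting noise. Counts are not tied to a strand setting in the sources used here, so overlapping genes on opposite strands cannot be told apart.

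Comparisons were MOV with sham in each treatment and D + Q with vehicle in each surgery, each on its own 10 mice, and their interaction on all 20. Each was tested in edgeR 4.0.16 (R 4.3.3) by the robust quasi-likelihood method with TMM, for genes that had 10 or more counts in 5 or more mice, Benjamini-Hochberg adjusted over all genes tested, threshold 0.05. Intervals are at 95%. Named genes are all members, up to 3 list genes each way called between vehicle MOV and vehicle sham muscle, and the 5 genes most like each creatine kinase. 1 gene of the kinase list is not reported here. The script was tested on simulated data. Positions and lengths came from a GENCODE annotation of GRCm39 (96.1% of rows matched), and promoters from RefSeq on GRCm38.p6, a build used for these windows only. Motif searches took the 250 bases before each start.

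Alternatives were DESeq2 1.42.0, RLE factors, library totals, no count minimum or one of 50, all mice fitted together, the replicate number as a block, limma-voom (limma 3.58.1) with sample weights, each mouse left out in turn, and, for isoform shares, other lengths. The canonical transcript length was added after seeing the data. Same-numbered mice of different groups did not deviate together over all genes (correlations -0.15 to 0.19 over 30 pairs), so mice were not paired in the main tests. Such correlations cannot exclude that same-numbered mice shared some condition, and fits with the number as a block are given below.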

Additional observations from a re-analysis of the deposited data

Results flagged for a closer look

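Vehicle sham replicate 2 stood apart in Ckmt2 at 1525 CPM, while the other 4 mice of its group had 1040 to 1181 CPM, and its gap to the nearest was 0.71 of the group's range, at the 95% critical value of Dixon's test for 5 samples. It was 1 of 36 groups examined, and chance marks about 1 in 20. Without this mouse Ckmt2 differed by -0.18 on the log2 scale between D + Q and vehicle sham muscle (adjusted p = 0.747, edgeR), against -0.29 with it, and the adjusted p ran from 0.202 to 0.747 over mice left out.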

How the results depend on the processing

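Among member comparisons with a test, 259 log2 values under alternatives without a mouse left out kept direction and side of the threshold, 6 turned direction, 5 came to pass (all Ampd3) and 1 no longer passed, and with each mouse left out 402 were kept, 25 turned and 3 came to pass. Among those given without a test (D + Q with vehicle in MOV, and the interaction of Ckmt2), 4 turned direction and 75 kept it, and with a mouse left out 11 turned and 99 kept it. The 4 were Ckm, to 0.0087 scaled to totals, and Ak1 scaled to totals, with a minimum of 50 counts and in one fit of all mice, to 0.053 at most. With a mouse left out, Gatm ran from -0.21 to 0.19 and Ak1 from -0.026 to 0.028 in MOV, and the Ckmt2 interaction from -0.17 to 0.043. Scaled to library totals, Slc6a8 in vehicle MOV against sham turned to 0.24, and Ak1 between D + Q and vehicle sham turned to 0.031. Ak1 in sham also turned to 0.00137 with a minimum of 50 counts, 0.0055 in limma-voom and 0.00597 in one fit of all mice, and its interaction to -0.020 in limma-voom, all within the SE. With 1 mouse left out, sham differences ran from -0.020 to 0.025 for Ak1, -0.059 to 0.0885 for Ampd1 and -0.0019 to 0.21 for Ampd3, and interactions from -0.028 to 0.027 for Ak1, -0.039 to 0.12 for Ampd1 and -0.14 to 0.34 for Ckb. Ampd3 in D + Q MOV against sham had an adjusted p of 0.0329 in DESeq2, 0.00868 in limma-voom, 0.0348 with a minimum of 50 counts, 0.000544 scaled to totals and 0.0135 with the replicate block, and 0.0538 to 0.113 in the other alternatives. Of all genes between D + Q and vehicle sham muscle, 30 were called, against 133 in DESeq2, 49 scaled to totals, 67 with no minimum and 19 in one fit of all mice. With 1 mouse left out the number ran from 2 (without D + Q sham replicate 3 or 5) to 74 (without vehicle sham replicate 5), and it was 3 without vehicle sham replicate 1, 2 or 3, 12 without D + Q sham replicate 2 and 15 without vehicle sham replicate 4. In DESeq2 1 pathway gene was called in sham. In MOV muscle DESeq2 called 11 genes, none of them among the 8 members other than Ckmt2, and leaving out a mouse gave 0 to 2 genes, 2 without vehicle MOV replicate 4. The cause of these shifts was not tested.

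With the replicate number as a block, 19 genes were called between D + Q and vehicle in sham, 2 in MOV and 1 in the interaction (2 without it), and no member's call changed but that of Ampd3. Depth limits Gatm (19 counts at the lowest) and Ckb (82) most.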
